A study of Homo sapiens with 23 samples.

Results

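The series follows the transcription factor ONECUT2 (OC2) in prostate cancer cells, and its LNCaP experiments have separate control sets. The knockdown experiment has control libraries labelled shCon, made from cells with the control hairpin sh202, and the overexpression experiment has control libraries labelled only as control, with no vector named. Each set holds 2 libraries, and the 4 libraries were compared with each other here, out of 23 in the series and 8 in the same table. All genes were compared, with control as the baseline, so that "higher" and "lower" mean higher or lower in shCon. The other groups used are shOC2 (cells with the OC2 hairpin sh45, 2 libraries), OC2 overexpression (2 libraries) and vehicle (LNCaP given vehicle for 7 days in the drug experiment, 3 libraries in another table). Per the labels, all of these are LNCaP cells grown in RPMI-1640 with serum, and the labels do not say whether libraries of a group came from separate cultures or clones, so that p-values measure only the spread between these libraries, which may be technical.

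LNCaP is an established line from a lymph node metastasis of prostate cancer, with a luminal, androgen-responsive program and an unstable genome. A control hairpin is meant to match the delivery and the processing of a small RNA without lowering a chosen transcript, and an overexpression control is meant to match the delivery of a construct. When stocks of a cancer line are kept apart, their chromosome copies, DNA methylation and gene expression are known to drift. Here the stock, the construct, the culture and the library series all separate the same 4 libraries into the same sets, so these cannot be told apart. The sample descriptions number shCon, shOC2 and vehicle in one series and control and OC2 overexpression in another, without saying what the numbering means.

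Per the labels neither control set carries an OC2 construct or hairpin. The sets still differed at most of the genes that could be tested, with many small differences and some very steep ones. The 4 libraries held from 21686330 to 23272089 counts. edgeR's quasi-likelihood test called 9467 of 16790 genes (56.4%) at a Benjamini-Hochberg adjusted p under 0.05, which is what "called", "rose" and "fell" mean below. Of these, 4757 genes were higher (28.3%) and 4710 were lower (28.1%). The counts given for gene lists below are to be read beside these shares. The median absolute log2 fold change over all tested genes was 0.42, and the median with its sign was 0.00. At 2-fold or more, 3369 genes were called (20.1%), of which 1768 were higher and 1601 lower. At 4-fold or more, 1365 were called (8.13%), 701 higher and 664 lower. At 16-fold or more with at least 5 CPM in the higher set (CPM is a gene's count scaled to a common library size), 68 genes were higher and 107 lower. Protein-coding genes were called at 59.0% (7782 of 13198) and all other genes at 46.9% (1685 of 3592).

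The libraries of one set lay close to each other. Over 11278 genes with at least 5 CPM, Spearman's correlation of log2 levels across genes was 0.997 between the shCon libraries and 0.995 between the control libraries. Between the sets it ran from 0.922 to 0.926. Genes are not independent replicates, and these correlations describe the libraries only. The replicates still differed by more than sampling noise, with a chi-square per degree of freedom of 5.27 in shCon and 9.01 in control, so each library was counted as 1 sample.

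**Figure D1:**
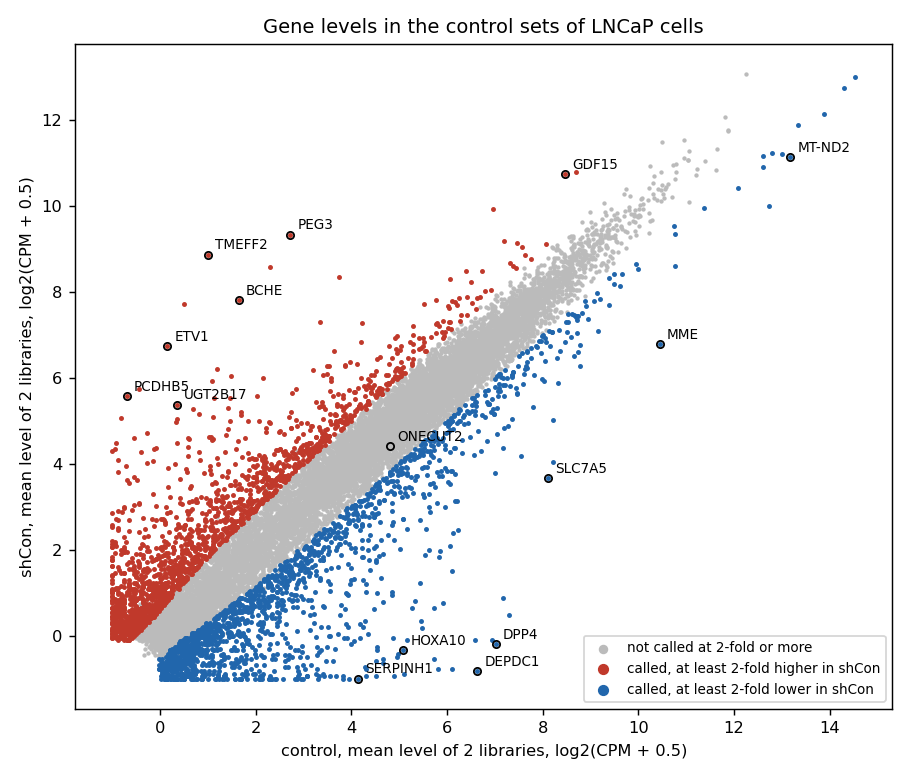
Mean level of each tested gene in control (horizontal axis, 2 libraries) and in shCon (vertical axis, 2 libraries), both as log2(CPM + 0.5). Red points are the 1768 genes called at 2-fold or more higher in shCon, blue points the 1601 lower, and grey points all other tested genes. Circles mark named genes, with TMEFF2 and PEG3 far above the diagonal, DPP4 and DEPDC1 far below it, and ONECUT2 close to it.

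ONECUT2, the factor under study (from 57435685 to 57491297 on chromosome 18, plus strand, hg38), was present in both control sets. It stood at 20.4 and 21.3 CPM in the shCon libraries and 24.6 and 30.7 CPM in the control libraries. The sets did not overlap, and shCon was lower, with a log2 fold change of -0.41 (SE 0.11, edgeR adjusted p = 0.0127). The call was lost without control library 2 (log2 fold change -0.25, adjusted p = 0.0773) and, with all libraries kept, without a low-count filter (-0.42, adjusted p = 0.0711). The shOC2 libraries held 12.1 and 12.2 CPM, the OC2 overexpression libraries 333 and 304 CPM and the vehicle libraries 15.4, 15.01 and 12.8 CPM. Vehicle levels come from a table counted separately, so here and below they stand beside the others as a description with no test.

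Some genes were near silent in control and plainly expressed in shCon. TMEFF2, a transmembrane protein of luminal prostate cells, had 474 and 455 CPM in the shCon libraries and 1.598 and 1.38 CPM in the control libraries. That is 311-fold (log2 fold change 8.28 ± 0.12, given here and below with its standard error, adjusted p = 1.07e-09). The remaining LNCaP groups lay between, with 33.01 and 33.5 CPM in shOC2, 34.6 and 33.9 CPM in OC2 overexpression and 207, 213 and 196 CPM in vehicle. ETV1, an ETS transcription factor whose locus is known to be rearranged in LNCaP, had 105 and 106 CPM against 0.678 and 0.534 CPM, 173-fold higher (7.43 ± 0.13, adjusted p = 2.16e-09). ETV1 stood at 132 and 142 CPM in shOC2, 271 and 283 CPM in OC2 overexpression and 182, 199.7 and 175 CPM in vehicle, so control alone was near 0.

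PEG3, an imprinted gene that encodes a zinc finger protein, had 631 and 659.9 CPM in shCon and 5.91 and 6.23 CPM in control (6.73 ± 0.10). It was at 270.3 and 247 CPM in shOC2 and 134, 202 and 135 CPM in vehicle, but at 5.89 and 4.93 CPM in OC2 overexpression, as low as in control. MT1G, a zinc-binding metallothionein, had 22.5 and 21.4 CPM in shCon and 0.0484 and 0 CPM in control, a ratio of counts of 945 with an exact 95% interval of 169 to 37359. All other groups held MT1G between 18.7 and 58.5 CPM, so here too the control set alone was near 0. DIO3, which inactivates thyroid hormone, had 46.8 and 59.5 CPM against 0.290 and 0.178 CPM (7.80 ± 0.24), with 67.1 and 63.98 CPM in shOC2 and 2.57 and 2.84 CPM in OC2 overexpression. PRXL2A, a peroxiredoxin-like protein, and MSI1, an RNA-binding protein, were also lowest in control. PRXL2A had 20.3 and 19.5 CPM in shCon and 0 and 0.0445 CPM in control, and MSI1 15.5 and 11.8 CPM and 0.0484 and 0.0445 CPM.

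The other steep rises were OPRK1, an opioid receptor at 5.91 and 4.62 CPM in shCon and 0 in both control libraries, PALM, a membrane-associated phosphoprotein (ratio of counts 151, interval 41.4 to 1249), CHMP4A, an ESCRT-III subunit (6.60 ± 0.42), the primate gene TRIM49D1, the aldo-keto reductases AKR1C1 and AKR1C2, and the protocadherins PCDHB2 and PCDHB5, which are described below. OPRK1 was at least 37.8-fold higher, where the bound sets control at a floor of 3 counts per library. TRIM49D1 and TRIM49D2 are near-identical copies, and their separate counts are uncertain. Counting is not stated to use strand, so antisense and overlapping genes are uncertain as well, among the steep genes PEG3 with ZIM2, CHMP4A, RGL3 with EPOR, MEST with COPG2 and MESTIT1, GGACT with PCCA, BCAT1, DEPDC1 and GALC.

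The steepest falls were genes of varied function that shCon lacked. SERPINH1, a collagen chaperone, had 16.4 and 17.7 CPM in the control libraries and 0 in both shCon libraries, at least 137-fold lower. It was also at 0 in both shOC2 libraries, at 0.265, 0.307 and 0.439 CPM in vehicle, and at 8.79 and 8.67 CPM in OC2 overexpression. The mitochondrial carrier gene SLC25A43 (at least 119.7-fold lower) and the branched-chain aminotransferase gene BCAT1 (at least 109-fold lower) had the same arrangement, at 0 in all 4 hairpin libraries. ILDR1, a tricellular junction protein, RGL3, PLEK2, a pleckstrin family member, and GGACT were likewise at 0 in both shCon libraries, at least 75.2-fold, 59.5-fold, 52.5-fold and 43.4-fold lower.

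DEPDC1, a mitotic gene, had 92.7 and 104 CPM in control and 0.0827 and 0.0416 CPM in shCon, a ratio of counts of 1584 (exact 95% interval 541 to 7682). It was present in every other LNCaP library, at 30.6 and 30.4 CPM in shOC2, 74.02 and 80.6 CPM in OC2 overexpression and 28.5, 28.1 and 24.3 CPM in vehicle, so here the shCon set stood alone. MEST, an imprinted gene of the hydrolase fold, had 72.2 and 65.1 CPM in control and 0.124 and 0.0416 CPM in shCon (-9.61 ± 0.21). MEST was at 29.2 and 29.4 CPM in shOC2, 63.9 and 68.04 CPM in OC2 overexpression and 4.82, 5.44 and 4.304 CPM in vehicle. PARVA, a focal adhesion protein, had 34.6 and 32.9 CPM in control and 0.0413 and 0.0416 CPM in shCon, and 23.1 and 20.3 CPM in shOC2. C9orf64 (1077-fold by ratio of counts, interval 193 to 42590.1) had the same arrangement, with 15.8 and 15.8 CPM in shOC2 libraries. The remaining steep falls were GALC, a lysosomal galactosidase, DENND2D, a vesicle traffic regulator, LPL, lipoprotein lipase, and NXF2, an RNA export factor with a near-identical copy.

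Counted by presence rather than by fold, 42 genes were at the floor in one set (at most 3 counts over both libraries) and at 5 CPM or more in the other. Of these, 15 were absent in control and 27 absent in shCon. Among the 11 protein-coding genes absent in control, 10 had at least 1 CPM in vehicle, 9 in shOC2 and 6 in OC2 overexpression. Among the 22 protein-coding genes absent in shCon, 4 had at least 1 CPM in vehicle, 3 in shOC2 and 16 in OC2 overexpression. Protein-coding genes absent in shCon were thus mostly under 1 CPM in vehicle and shOC2 too. HOXB7, a homeobox gene, was one of them, at 0 and 0.0416 CPM in shCon and 6.58 and 7.12 CPM in control.

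**Figure D2:**
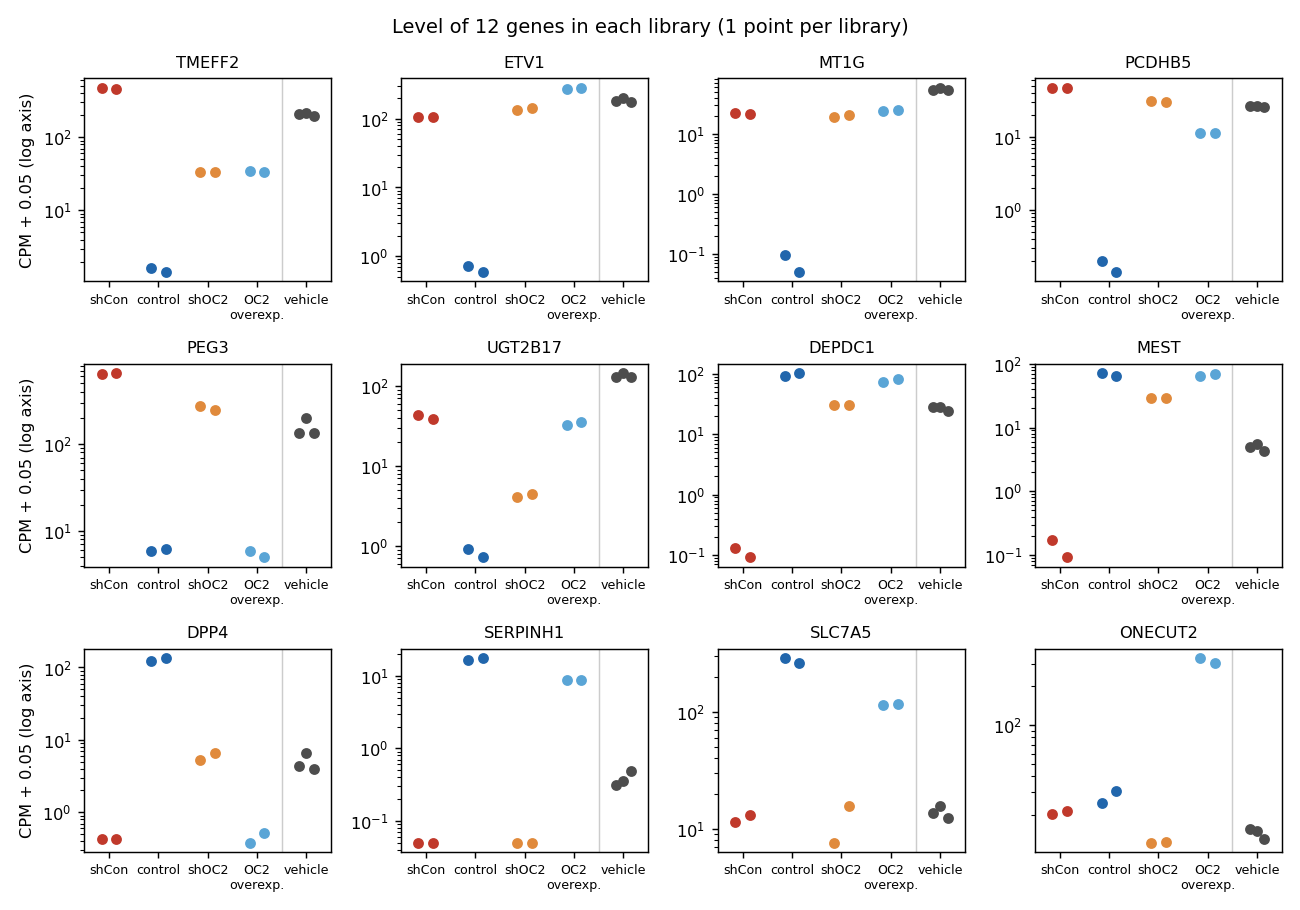
Level of 12 genes in each library, as CPM + 0.05 on a log axis, with 1 point per library for shCon, control, shOC2, OC2 overexpression and vehicle (right of the line, from a table counted separately). ETV1 and MT1G are low in control alone, DEPDC1 is low in shCon alone, and SERPINH1 is at 0 in both shCon and both shOC2 libraries.

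Among genes called at 2-fold or more, the largest gains in CPM beside TMEFF2 and PEG3 included several secreted and surface proteins. SPON2, a secreted matrix protein, had 1720.4 and 1829.6 CPM in shCon and 458 and 371 CPM in control (2.09 ± 0.10). GDF15, a stress-induced cytokine of the TGF-beta family, had 1880.4 and 1541 CPM and 386 and 320.1 CPM (2.27 ± 0.12). EFNB2, a membrane-bound ephrin ligand, had 321 and 335 CPM and 13.2 and 12.5 CPM (4.67 ± 0.09). In each of these the shCon libraries stood clear above the control libraries. NCAM2, a neural adhesion molecule, gained by 1.99 ± 0.09, NETO1, a receptor accessory protein, by 1.48 ± 0.07, and SLC45A3, the prostate transporter also called prostein, by 1.66 ± 0.10 on the log2 scale. MCCC2, a subunit of the leucine-degrading methylcrotonyl-CoA carboxylase, had 929 and 1028 CPM in shCon and 131 and 116 CPM in control (2.98 ± 0.09). The 10 largest losses in CPM at 2-fold or more were all mitochondrial transcripts, which are described below.

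To place the sets among the other LNCaP libraries, the 2616 genes called at 2-fold or more that also have a vehicle level were sorted by which set the other groups lay nearer to, on log2(CPM + 0.5). Vehicle lay nearer shCon for 2003 of them (76.6%), and each vehicle library alone gave between 75.3% and 76.0%. The shOC2 libraries lay nearer shCon for 1919 (73.4%) and the OC2 overexpression libraries for 1427 (54.5%). For 939 genes (35.9%) all 3 other groups lay nearer shCon, and for 162 (6.19%) all 3 lay nearer control. Across genes, Spearman's correlation with vehicle was 0.973 to 0.974 for shCon and 0.929 to 0.934 for control. The numbered library series moves with this order, and its part was not tested.

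Luminal markers were expressed in both sets, while single markers differed strongly. All 22 luminal markers listed were tested, with 8 higher, 10 lower and a median log2 fold change of -0.22, beside 0.00 over all genes. KLK3, the prostate-specific antigen gene, was named after its values were seen and stood at 1775 and 1899.6 CPM in shCon and 3222 and 3103 CPM in control (-0.79 ± 0.07). Besides TMEFF2, the members with the largest differences were KRT19, a simple-epithelium keratin, at 0.827 and 0.957 CPM against 12.5 and 13.6 CPM (-3.87 ± 0.18), AGR2, a secretory disulfide isomerase (2.59 ± 0.22), and AMACR, a peroxisomal racemase used as a prostate cancer marker, at 27.00 and 29.4 CPM against 140.1 and 149.6 CPM (-2.37 ± 0.08). TMPRSS2, an androgen-induced serine protease (0.16 ± 0.07, adjusted p = 0.0634), and STEAP1, a surface metalloreductase (-0.04 ± 0.07, adjusted p = 0.643), were not called.

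Androgen-induced genes were lower more often than higher in shCon, with 13 lower and 4 higher of 22 tested and a median of -0.59. PLPP1, a lipid phosphatase, had 199 and 213 CPM in shCon against 697 and 638 CPM in control (-1.70 ± 0.08). The members that rose included HPGD, which degrades prostaglandins (3.88 ± 0.26), ABCC4, an efflux pump (1.76 ± 0.07), and SLC45A3 (1.66 ± 0.10). TMEM100 had a ratio of counts of 9.32 (interval 2.84 to 48.2), lower in shCon, and lost its call in DESeq2 (-3.23).

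Genes listed as androgen-repressed pointed the other way, with 8 higher and 3 lower of 12 tested and a median of 2.68. BCHE, which encodes butyrylcholinesterase, had 249 and 197 CPM in shCon and 2.32 and 2.94 CPM in control (6.39 ± 0.17). PEG10, an imprinted gene derived from a retrotransposon, had 39.98 and 37.1 CPM against 2.37 and 2.004 CPM. Members of the list also fell. DDC, the decarboxylase that makes dopamine and serotonin, had 3.31 and 3.54 CPM in shCon and 57.7 and 57.3 CPM in control (-4.07 ± 0.10), and SYT4, a vesicle synaptotagmin, fell as well (-2.71 ± 0.10).

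UGT enzymes, of which UGT2B15 and UGT2B17 join glucuronic acid to androgens and so inactivate them, were higher in shCon together. Of 10 enzymes in the list, 8 were tested and all 8 were higher, with a median of 4.47, or 3.56 with the genes at 0 in control set at their bound. The filter admits a gene through either set, so this count describes the list and is no support for it. Their summed level was 93.6 and 85.3 CPM in shCon and 5.13 and 5.699 CPM in control. It was 59.6 and 53.4 CPM in shOC2 and 541 and 569 CPM in OC2 overexpression, so control was the lowest of the 4 groups. UGT2B17 had 43.7 and 38.1 CPM in shCon against 0.871 and 0.668 CPM in control (5.72 ± 0.17, adjusted p = 2.89e-08), and UGT2B15 had 39.5 and 33.2 CPM against 2.76 and 2.67 CPM (3.74 ± 0.14). In shOC2 both were far below shCon, with UGT2B17 at 4.02 and 4.39 CPM and UGT2B15 at 5.68 and 5.38 CPM. OC2 overexpression held 32.4 and 35.2 CPM of UGT2B17 and 102 and 111 CPM of UGT2B15. Other members thus made up most of the sum in both of these groups. Vehicle held both genes far above either set's mean, at 128, 146 and 129 CPM for UGT2B17 and 126, 142 and 118 CPM for UGT2B15. UGT2B17 and UGT2B15 are close paralogs, and reads between them may be split by the counting. UGT1A6, a phenol-conjugating relative, was at 0 in both control libraries and at 0.951 and 1.54 CPM in shCon, at least 8.93-fold higher.

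Other enzymes of steroid synthesis and conversion gave 9 higher and 3 lower of 14 tested, with 8 of the 22 listed not tested and a median of 0.63. The aldo-keto reductases, which interconvert active and inactive steroids, led them. AKR1C1 had 7.03 and 6.36 CPM in shCon and no count in control, so it was at least 48.04-fold higher. AKR1C2 had 6.33 and 5.49 CPM against 0.0484 and 0.0445 CPM, a ratio of counts of 127 (interval 34.9 to 1057), and AKR1C3 a ratio of 31.7 (interval 8.47 to 267). AKR1C1 was 2.26 and 2.13 CPM in shOC2, 1.19 and 0.711 CPM in OC2 overexpression and 0.929, 0.834 and 1.27 CPM in vehicle, so shCon was the highest group. AKR1C1 and AKR1C2 are near-identical. HSD3B1, which makes precursors of active androgens, went the other way, at 0 in shCon and 0.629 and 0.534 CPM in control, at least 4.68-fold lower. Glucocorticoid-responsive genes showed no common direction, with 5 higher and 4 lower of 13 tested and a median of 0.07.

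Lipid synthesis was lower in shCon across both branches. Of 21 tested sterol synthesis genes, 14 were lower and none was higher, with a median of -0.49. FDFT1, squalene synthase, had 286 and 298 CPM in shCon and 728 and 708 CPM in control (-1.30 ± 0.07). INSIG1, which retains the sterol sensor in the endoplasmic reticulum, had 115 and 129 CPM and 396 and 375 CPM (-1.66 ± 0.08). Of 18 fatty acid synthesis genes, 11 were lower and 2 higher, with a median of -0.39. FADS2, a desaturase, had 946 and 1047 CPM in shCon against 2811 and 2507 CPM in control (-1.42 ± 0.08), and SREBF1, the lipogenic transcription factor, 357 and 328 CPM against 786 and 648 CPM (-1.07 ± 0.10). ELOVL6, a fatty acid elongase, rose against the direction of the list, to 102 and 93.4 CPM from 10.9 and 12.8 CPM (3.03 ± 0.10).

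Chaperones of the endoplasmic reticulum were lower as well. Of 18 tested, 16 were lower and 1 higher, with a median of -0.83, and their summed level was 7064 and 6899.6 CPM in shCon against 10742 and 11855 CPM in control. The sum was low in shOC2 too (6550.4 and 6879 CPM) and high in OC2 overexpression (10151 and 10079.7 CPM). CRELD2, a disulfide isomerase induced by misfolded protein, had 51.02 and 56.6 CPM in shCon and 170.0 and 176 CPM in control (-1.69 ± 0.08). PDIA4, another isomerase, had 378 and 362 CPM and 962 and 1066 CPM. DNAJB9, a chaperone partner of the unfolded protein response, fell by a similar factor (-1.69 ± 0.11), and PDIA6 was not called (-0.18 ± 0.08, adjusted p = 0.0729).

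Amino acid response genes had no common direction, with 6 higher and 5 lower of 22 and a median of -0.02, but 2 members stood out. SLC7A5, the large neutral amino acid transporter, had 11.3 and 13.1 CPM in shCon and 290.3 and 260.1 CPM in control (-4.50 ± 0.10, adjusted p = 8.89e-09). Its levels were 7.57 and 15.6 CPM in shOC2, 114 and 116 CPM in OC2 overexpression and 13.7, 15.5 and 12.3 CPM in vehicle. ALDH1L2, a mitochondrial folate enzyme, had 1.16 and 1.91 CPM against 17.9 and 20.5 CPM (-3.65 ± 0.20).

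Transcripts of the mitochondrial genome gave the largest losses in CPM among genes called at 2-fold or more. All 13 protein-coding mitochondrial genes were lower in shCon, with a median of -1.55 and a range from -2.18 to -1.26. Their summed level was 31729.6 and 26037 CPM in shCon against 93242 and 87658 CPM in control. MT-CO1, a subunit of cytochrome oxidase, had 7692 and 6087 CPM in shCon and 21053 and 19127 CPM in control (-1.55 ± 0.11). It had 7674 and 8719 CPM in shOC2, 20161 and 20686 CPM in OC2 overexpression and 18627, 18243 and 18876 CPM in vehicle. Of the mitochondrial ribosomal RNAs, MT-RNR1 fell (-2.74 ± 0.14), and so did MT-RNR2 (-1.54 ± 0.14). In bulk RNA, fewer cells of a type and less RNA per cell cannot be told apart. The share of counts taken by the 10 highest genes moved with this, at 5.54% and 4.92% in shCon and 10.75% and 10.98% in control, and the part of RNA handling in it was not tested.

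Replication-dependent histone genes, whose messages usually lack a poly(A) tail, were lower as well. Of 18 tested, 16 fell and 2 rose, with a median of -1.90 and a summed level of 172 and 182 CPM in shCon against 742 and 738 CPM in control. H2BC4, an H2B gene, had 1.199 and 2.37 CPM in shCon and 14.96 and 15.3 CPM in control (-3.09 ± 0.23). H1-4, a linker histone gene, had 0.124 and 0.125 CPM against 2.13 and 2.67 CPM, while H2BC8 rose (3.85 ± 0.43). Summed histone levels were low in shCon and in OC2 overexpression (181 and 186 CPM) and high in control and in shOC2 (862 and 782 CPM), an order unlike that of the mitochondrial transcripts. Of 36 cytosolic ribosomal protein genes, 18 were higher and 1 lower, by small amounts (median 0.19). RPS12, of the small subunit, rose most, to 437 and 434 CPM from 215 and 215 CPM (1.01 ± 0.07).

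**Figure D3:**
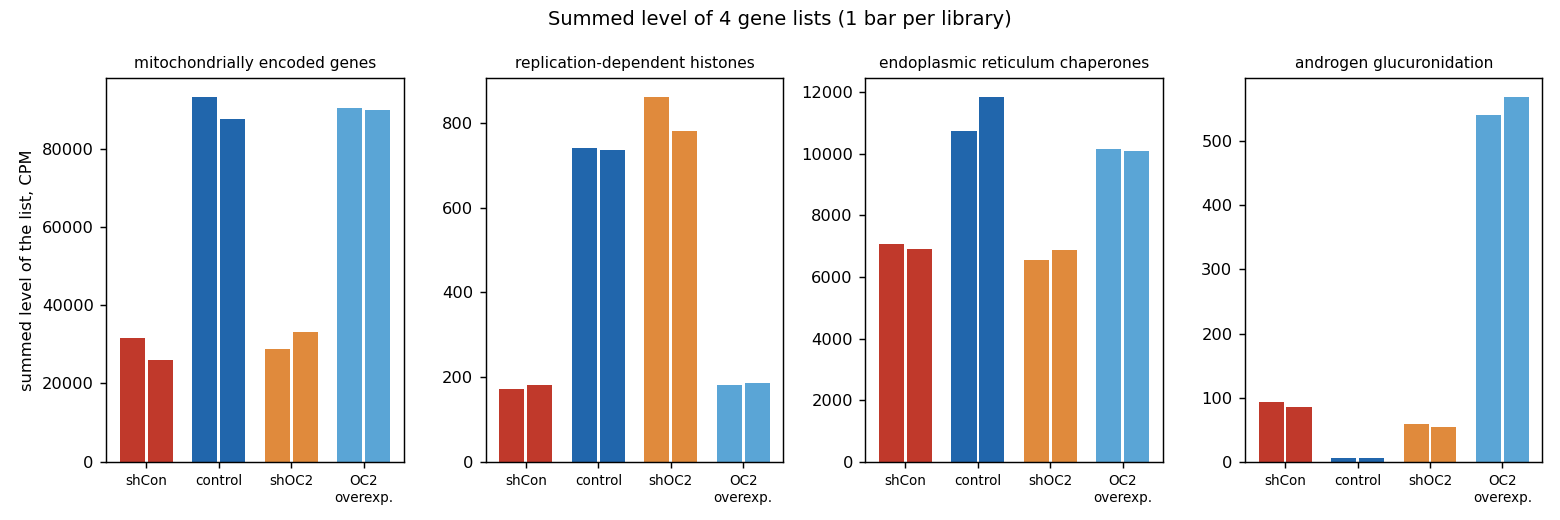
Summed level of 4 gene lists in CPM, with 1 bar per library and axes from 0, for shCon, control, shOC2 and OC2 overexpression. The mitochondrial sum is low in both hairpin groups, the histone sum is low in shCon and OC2 overexpression, and the glucuronidation sum is lowest in control.

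A control hairpin enters the small RNA pathway, so genes of double-stranded RNA sensing and RNA interference were listed. Of 20 tested, 8 were higher and 2 lower (50% called, beside 56.4% over all tested genes), with a median of 0.12. AGO2, which cleaves hairpin-guided targets (-0.14 ± 0.07, adjusted p = 0.12), and ADAR, which edits double-stranded RNA (0.03 ± 0.07, adjusted p = 0.696), were not called. TLR3, an endosomal sensor, had 2.03 and 2.16 CPM in shCon and 0.242 and 0.178 CPM in control (3.29 ± 0.37), RIGI, a cytosolic sensor, rose (1.24 ± 0.18), and DHX58, its relative, fell (-1.42 ± 0.22). The delivery vector of control is not named, so any effect of the hairpin cannot be told apart from the stock.

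Interferon-stimulated genes were mixed, with 10 higher and 6 lower of 22 tested and a median of 0.35. IFIT2, an antiviral RNA-binding protein, had 6.28 and 5.95 CPM in shCon and 0.629 and 0.445 CPM in control (3.50 ± 0.25), and UBE2L6, the ISG15-conjugating enzyme, rose by 4.33 ± 0.30. BST2, which tethers virus particles, fell to 0.248 and 0.374 CPM from 4.21 and 4.497 CPM (-3.79 ± 0.30), and PSMB8, an immunoproteasome subunit, fell (-2.85 ± 0.31). Of 17 tested antigen presentation genes, 7 were higher and 3 lower (58.8% called, beside 56.4% over all genes), with a median of 0.17. HLA-B had 89.5 and 80.4 CPM against 45.2 and 39.7 CPM (1.00 ± 0.09). B2M, the common light chain, and HLA-C were not called (0.01 and 0.17). HLA-C was called without control library 1 (0.21), with upper-quartile scaling (0.19) and in a joint fit of the 8 libraries (0.18).

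Most chemokines and their receptors were at low levels, and 8 of the 11 tested were higher and 1 lower, with a median of 3.63, or 3.50 with genes at 0 set at their bound. Here too genes entered the test through the set that expressed them. CXCL8, a neutrophil attractant, had 3.18 and 2.58 CPM in shCon and no count in control, which makes it at least 20.7-fold higher, and CCL20, which attracts CCR6-bearing cells, was at least 20.5-fold higher. CXCL12, the ligand of CXCR4, fell to 0.165 and 0.208 CPM from 6.97 and 4.85 CPM (-4.95 ± 0.35). CXCL16, a membrane-bound chemokine, was not called (-0.08 ± 0.07, adjusted p = 0.346).

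Cell cycle lists had small medians. Of 22 tested S phase genes, 6 were higher and 11 lower (77.3% called, median -0.18). Of 22 mitotic genes, 2 were higher and 10 lower (54.5% called, median -0.09). Over all tested genes 56.4% were called. MKI67, the proliferation marker, had 113 and 110.1 CPM in shCon and 197 and 213 CPM in control (-0.88 ± 0.07). RFC3, a clamp loader subunit that lies in the chromosome 13 segment described below, had 45.98 and 43.4 CPM and 123 and 123 CPM (-1.46 ± 0.07). FOXM1, a mitotic transcription factor, was not called (0.15 ± 0.08, adjusted p = 0.159). The list of D cyclins, their kinases and RB pathway genes gave 4 higher and 4 lower of 16, with a median of 0.03. The p53 target list gave 8 higher and 5 lower of 20, with a median of 0.12, and CDKN1A, a cyclin-dependent kinase inhibitor, was not called, at 174 and 163 CPM and 185 and 162 CPM (-0.05 ± 0.08, adjusted p = 0.665). Apart from GDF15, the called members of that list had log2 fold changes under 1 in size.

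Hypoxia and glycolysis genes centred on no change, with 7 higher and 2 lower of 25 and a median of -0.04, and GAPDH was at 3278 and 3583 CPM and 3866 and 3596 CPM (-0.13 ± 0.07, adjusted p = 0.173). Antioxidant and glutathione genes gave 10 higher and 1 lower of 17, with a median of 0.29. NQO1, a quinone reductase, had 229.7 and 210.0 CPM in shCon and 65.9 and 70.97 CPM in control (1.68 ± 0.08), and GSTA4, a glutathione transferase, 53.8 and 45.5 CPM and 5.28 and 7.17 CPM (2.98 ± 0.15). Among metallothionein and zinc genes, MT1G differed steeply while MT2A, its relative, was not called (0.07 ± 0.09, adjusted p = 0.535), though without control library 1 it was (0.21). The list as a whole gave 2 higher and 3 lower of 10, with a median of 0.08. In the BCL2 family, 9 were higher and 4 lower of 17, with a median of 0.25. BCL2L14 fell (-3.48 ± 0.43), BCL2, the anti-apoptotic founder of the family, rose (1.75 ± 0.17), and BOK, a pore-forming relative of BAX, fell (-1.82 ± 0.09).

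DPP4, the surface peptidase CD26, had 0.372 and 0.374 CPM in shCon and 123 and 135 CPM in control, 343-fold lower (-8.42 ± 0.15, adjusted p = 2.16e-09). It had 5.26 and 6.61 CPM in shOC2, 0.333 and 0.474 CPM in OC2 overexpression and 4.33, 6.63 and 3.91 CPM in vehicle, so control alone was high. MME, the surface peptidase neprilysin, had 106 and 112 CPM in shCon and 1353 and 1438 CPM in control (-3.68 ± 0.08). Of 11 tested surface peptidases and therapy targets, 2 were higher and 6 lower, with a median of -0.49. STEAP1 and CD276, a B7 family protein (0.04), were not called.

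Eph receptors and ephrins, the contact-dependent signalling pair, gave 10 higher and 5 lower of 18 tested, with a median of 0.43. Beside EFNB2, EFNB3 rose to 3.39 and 3.66 CPM from 0 and 0.178 CPM (5.17 ± 0.54), EPHA7 was at 0 in both control libraries and at least 13.2-fold higher in shCon, and EFNA2 fell (-3.53 ± 0.25). Among receptor kinases and their ligands, 7 of 19 were higher and 5 lower (median 0.17). IGF1R, the insulin-like growth factor receptor, rose to 41.8 and 54.1 CPM from 14.3 and 13.1 CPM (1.80 ± 0.13), and MET, the receptor of hepatocyte growth factor, fell (-2.15 ± 0.31). Wnt pathway genes gave 4 higher and 9 lower of 20 (median -0.23), with WNT5A, a ligand of the non-canonical branch, higher (2.08 ± 0.16) and WNT10A lower (-2.26 ± 0.23). Integrins, laminins and collagens gave 9 higher and 6 lower of 22 (median 0.11). In that list LAMB2, a laminin beta chain, rose to 167 and 148 CPM from 9.78 and 9.66 CPM (4.02 ± 0.10), and COL4A2, a basement membrane collagen chain, fell (-2.98 ± 0.20). ETS factors other than ETV1 gave both directions, with 8 higher and 4 lower of 17 in the whole list (median 0.12) and ELF5, an epithelial member, at 0.455 and 0.582 CPM in shCon against 19.6 and 20.3 CPM in control (-5.25 ± 0.18).

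**Figure D4:**
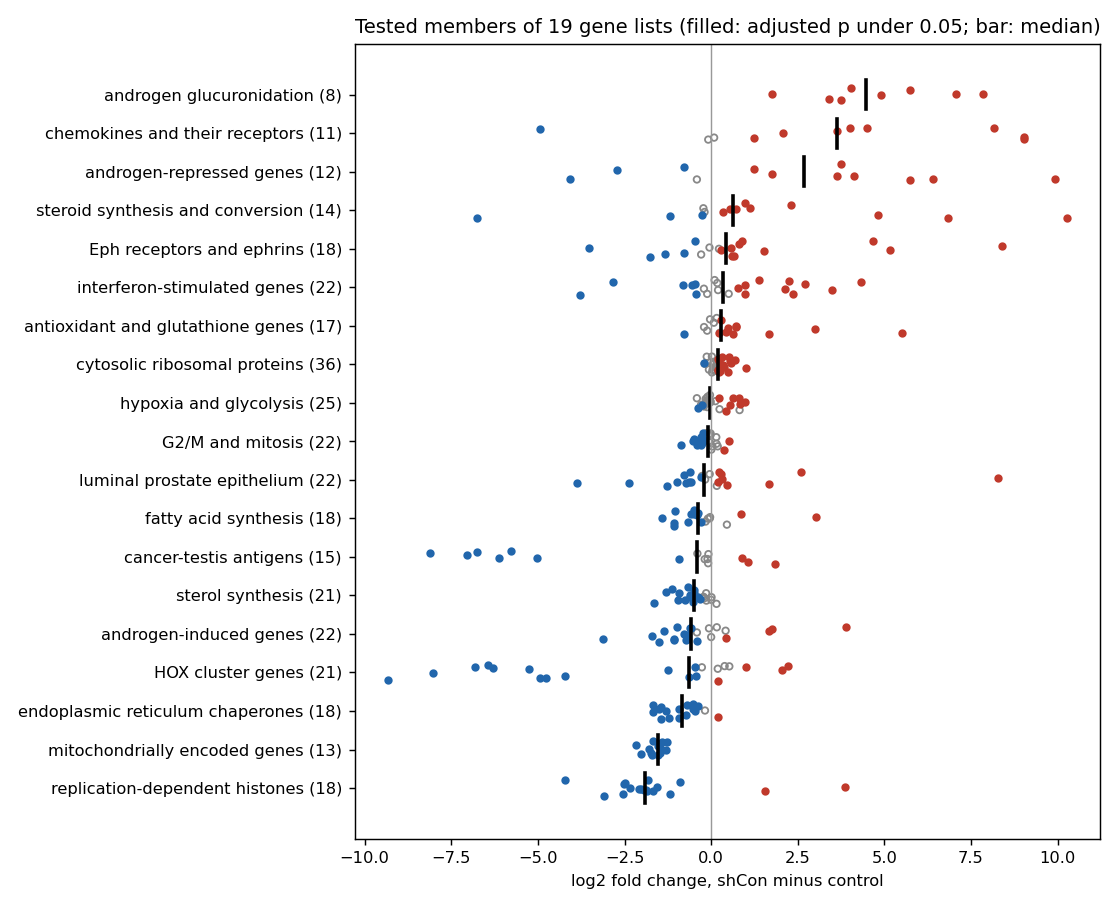
Log2 fold change (shCon minus control) of each tested member of 19 gene lists, with the number tested in brackets. Red and blue points are members called higher and lower, open points were not called, and black bars are medians. All 13 mitochondrial genes and most endoplasmic reticulum chaperones lie below 0, while chemokines and glucuronidation enzymes lie mostly above it.

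Markers of other cell types had low to moderate levels and gave both directions. Of 16 stromal, endothelial and blood cell markers, 6 passed the filter (3 higher, 2 lower, median 0.61) and 6 were at 0 in all 4 libraries. Their summed level ran from 47.6 to 52.6 CPM in shCon and from 33.2 to 37.4 CPM in control, with COL1A1, a fibrillar collagen chain, at 34.5 and 28.9 CPM and 14.6 and 13.9 CPM. Basal markers gave 3 higher and 2 lower of 6 tested (median 0.22), with KRT14 and LAMB3 higher (2.36 ± 0.41 and 2.33 ± 0.29) at low levels and EGFR, a growth factor receptor, lower at 51.2 and 58.6 CPM against 103 and 109 CPM (-0.96 ± 0.08). The basal markers summed to 122 and 126 CPM in shCon and 155 and 169 CPM in control, lower in shCon. Of 14 basal markers, 1 was at 0 in all 4 libraries. ITGB4, an integrin chain, was lower (-0.85 ± 0.29), and lost its call without control library 1 (-1.02) or 2 (-0.68) and without shCon library 2 (-0.48). Neuroendocrine markers gave 4 higher and 2 lower of 7 tested (median 0.69). ENO2, a neuronal enolase, rose to 26.4 and 34.2 CPM from 4.21 and 4.68 CPM (2.76 ± 0.15), while DDC (-4.07 ± 0.10) and SYT4 (-2.71 ± 0.10) fell. The summed level of the list was 125 and 136 CPM in shCon and 163 and 171 CPM in control. Mesenchymal genes gave 4 higher and 2 lower of 8 tested (median 0.74), with TWIST1, a transcription factor of mesenchyme, at 11.5 and 10.8 CPM in shCon and 0.145 and 0.134 CPM in control (6.26 ± 0.26) and VIM, vimentin, at 24.6 and 29.6 CPM and 7.55 and 9.04 CPM. FBLN2, a matrix fibulin, fell (-1.43 ± 0.18). The summed level of the mesenchymal list was 347 and 344 CPM in shCon and 438 and 447 CPM in control, so the sum was lower in shCon. Hepatic and intestinal genes gave 4 higher and 3 lower of 8 tested (median 0.14).

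In gene classes known to be silenced by DNA methylation or polycomb marks, some members were near absent in one set and plainly expressed in the other. Among cancer-testis antigens, which are normally limited to germ cells, 3 were higher and 7 lower of 15 tested (median -0.40). PAGE1 had 0.579 and 0.291 CPM in shCon and 109 and 135 CPM in control (-8.12 ± 0.21), and MAGEA1 had 1.24 and 1.41 CPM and 145 and 141 CPM (-6.75 ± 0.11). MAGEA3, of the same family, was level at 149 and 162 CPM and 167 and 162 CPM (-0.09 ± 0.07, adjusted p = 0.324). Imprinted genes gave 5 higher and 7 lower of 17 tested (median -0.06), with PEG3 and PEG10 high in shCon and MEST and PLAGL1, a zinc finger gene (-4.43 ± 0.42), high in control. SNRPN, an imprinted splicing gene, was not called (-0.06 ± 0.07, adjusted p = 0.475). HOX genes, which set position along the body axis, gave 4 higher and 13 lower of 21 tested (median -0.63). HOXA10 had 0.124 and 0.458 CPM in shCon and 37.1 and 29.7 CPM in control (-6.82 ± 0.27), and HOXA13 0 in both shCon libraries and 3.24 and 3.696 CPM in control, at least 27.9-fold lower. Of the enzymes of DNA methylation and polycomb themselves, 6 were higher and 4 lower of 18 (median 0.03). That is 55.6% called, near the 56.4% over all tested genes. DNMT3A, a de novo methyltransferase, rose (1.11 ± 0.09), EZH2, the polycomb methyltransferase, fell (-0.84 ± 0.08), and DNMT1, the maintenance enzyme, was not called (-0.05 ± 0.07, adjusted p = 0.603). No methylation was measured here.

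Steep differences also lay side by side on the genome. Runs of at least 3 neighbouring tested protein-coding genes, all called at 4-fold or more in the same direction, numbered 18, of which 13 were higher and 5 lower. They held 71 of the 923 protein-coding genes called at that size (7.69%). The longest was the protocadherin beta cluster, which encodes cell-surface cadherins of neurons and is a known target of DNA methylation in tumours. On chromosome 5 from 141094578 to 141249365 (hg38), 10 members from PCDHB2 to PCDHB15 were all higher, with a median log2 fold change of 6.85, or 4.76 with the 4 genes at 0 in control set at their bound. PCDHB5 had 46.8 and 47.3 CPM in shCon and 0.145 and 0.0891 CPM in control (8.59 ± 0.18), and PCDHB2 22.9 and 24.8 CPM and 0.290 and 0.0891 CPM (6.96 ± 0.24). PCDHB5 was at 31.03 and 30.04 CPM in shOC2, 11.2 and 11.1 CPM in OC2 overexpression and 26.6, 26.2 and 25.3 CPM in vehicle, so control alone lacked it. Next to it, 6 genes of the protocadherin gamma cluster were higher (median 2.51), with the caution that gamma genes share their last exons. Of these, PCDHGA5 lost its call without control library 1 (1.66), without shCon library 2 (1.91) and in DESeq2 (2.17), and PCDHGB3 without control library 1 (1.52), without a low-count filter (2.45) and in DESeq2 (2.52).

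The longest run in the other direction was the HOXA cluster. On chromosome 7 from 27106184 to 27250493, 8 neighbouring tested genes from HOXA3 to EVX1 were lower, with a median of -5.27, or -5.24 with HOXA13 at its bound. HOXA10 was the only one of them above 5 CPM in control, and it stood at 10.1 and 11.5 CPM in shOC2, 18.1 and 18.5 CPM in OC2 overexpression and 5.88, 4.83 and 4.48 CPM in vehicle. Another run held AKR1C1, AKR1C2 and AKR1C3 on chromosome 10 from 4963253 to 5107686. RefSeq promoter sequences of GRCh38.p14 were available for 10588 of the 13198 tested protein-coding genes. The 250 bases before the RefSeq start of 5 genes of these 3 runs are printed to show how the runs differ in CG content. RefSeq starts differ from the GENCODE starts used elsewhere. The HOXA10 sequence lies inside its GENCODE gene, and those of PCDHB2, HOXA13 and AKR1C1 reach into theirs. They run 5′ to 3′ on the strand of the gene, and capitals mark each CG.

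The sequences are PCDHB2 (chr5:141094365-141094614, plus strand, 10 CG), PCDHB5 (chr5:141134956-141135205, plus strand, 4 CG), HOXA10 (chr7:27179862-27180111, minus strand, 19 CG), HOXA13 (chr7:27200092-27200341, minus strand, 40 CG) and AKR1C1 (chr10:4963165-4963414, plus strand, 2 CG).
PCDHB2: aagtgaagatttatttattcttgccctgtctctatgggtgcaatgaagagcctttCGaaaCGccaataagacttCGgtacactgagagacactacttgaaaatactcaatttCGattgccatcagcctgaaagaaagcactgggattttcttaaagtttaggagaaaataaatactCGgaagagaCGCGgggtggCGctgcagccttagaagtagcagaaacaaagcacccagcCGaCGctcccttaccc
PCDHB5: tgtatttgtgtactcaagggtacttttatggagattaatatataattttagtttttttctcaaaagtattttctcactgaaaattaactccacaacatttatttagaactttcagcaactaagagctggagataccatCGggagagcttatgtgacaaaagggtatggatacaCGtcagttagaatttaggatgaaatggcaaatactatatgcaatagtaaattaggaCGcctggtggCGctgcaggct
HOXA10: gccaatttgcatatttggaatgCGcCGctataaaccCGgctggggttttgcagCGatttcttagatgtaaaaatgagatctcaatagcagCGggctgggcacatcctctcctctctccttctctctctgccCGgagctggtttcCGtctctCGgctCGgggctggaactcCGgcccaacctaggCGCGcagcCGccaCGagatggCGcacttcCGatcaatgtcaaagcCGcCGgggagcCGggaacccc
HOXA13: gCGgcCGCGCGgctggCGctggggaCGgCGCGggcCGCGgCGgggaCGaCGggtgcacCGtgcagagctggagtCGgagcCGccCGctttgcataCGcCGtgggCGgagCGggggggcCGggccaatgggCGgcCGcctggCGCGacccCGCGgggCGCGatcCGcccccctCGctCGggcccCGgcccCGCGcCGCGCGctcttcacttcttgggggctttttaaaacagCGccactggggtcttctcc
AKR1C1: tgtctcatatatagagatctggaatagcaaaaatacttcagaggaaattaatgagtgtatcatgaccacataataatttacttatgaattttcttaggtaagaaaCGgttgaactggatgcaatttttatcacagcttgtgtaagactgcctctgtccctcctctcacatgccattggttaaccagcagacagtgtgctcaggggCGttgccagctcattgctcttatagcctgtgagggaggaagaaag

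Before their RefSeq starts, the protocadherin and AKR1C runs held few CG and the HOXA run held more. With CG-rich defined as at least 50% G and C and an observed over expected CG of at least 0.6, 8091 of 10588 matched promoters (76.4%) were CG-rich, with a median of 21 CG. In the protocadherin beta run 0 of 9 matched promoters were CG-rich, with 4 to 10 CG each, and in the gamma run 0 of 6. PCDHB2 missed the definition only on its G and C content (44.8%), with an observed over expected CG of 0.80. In the AKR1C run 0 of 3 were CG-rich. In the HOXA run 6 of 7 were CG-rich, with 11 to 40 CG. CG was searched as the letters CG, which read the same on both strands. These counts describe the sequence and say nothing of its methylation.

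The other runs were shorter and mixed in function. Higher in shCon were UGT2B17, UGT2B15 and UGT2B10, the interferon-induced GBP3, GBP1 and GBP2 and IFIT2, IFIT3 and IFIT1, the antigen-presenting HLA-DRA, HLA-DRB1 and HLA-DQB1, BCHE with SLITRK3 and ZBBX, TLR3 with SORBS2 and PDLIM3, SLITRK6 with SLITRK5 and GPC5, PCDH11X with PABPC5 and NAP1L3, TRIM49D1 with TRIM49D2 and NAALAD2, and the zinc finger genes ZNF208, ZNF257, ZNF676 and ZNF492. Lower were AMACR with RXFP3, SLC45A2 and C1QTNF3, the histone genes H2BC11, H2AC11 and H4C9, the antigens GAGE1, GAGE2A and PAGE1, and GTF3A with MTIF3 and LNX2. GAGE genes, PCDH11X and the HLA class II genes have close copies, so their split is uncertain. TRIM49D2 lost its call without control library 1 (7.02) or 2 (5.38), ZNF257 without control library 1 (1.89) and GPC5 in DESeq2 (4.43). HLA-DRA, a class II chain of antigen-presenting cells, had 0.992 and 0.707 CPM in shCon and 0 and 0.0445 CPM in control, a ratio of counts of 36.7 (interval 6.22 to 1483).

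Over larger distances, the medians of some chromosome segments also differed between the sets. In 257 windows of 10 Mb with at least 15 protein-coding genes (12203 genes at 1 CPM or more), 175 window medians lay within 0.2 of 0, 10 were at 0.5 or above and 11 at -0.5 or below. The lowest were neighbouring windows on chromosome 13, from 20 to 30 Mb (median -1.21, 36 genes) and from 30 to 40 Mb (median -1.21, 23 genes). GTF3A, which starts 5S ribosomal RNA transcription, had 108 and 108 CPM in shCon and 434 and 444 CPM in control (-2.03 ± 0.07). The highest-level genes of these windows, RPL21, SLC7A1, HMGB1, HSPH1 and UFM1, were all lower, with log2 fold changes of -1.36, -1.33, -1.25, -1.59 and -1.76. The highest windows were on chromosome 6, from 80 to 90 Mb (median 0.80, 27 genes) and from 70 to 80 Mb (median 0.76, 21 genes). Of the 3 highest-level genes of the window from 80 to 90 Mb, SYNCRIP, an RNA-binding protein, was not called (-0.01 ± 0.08, adjusted p = 0.936), while ME1, malic enzyme (0.73 ± 0.07), and IBTK, a kinase inhibitor (0.68 ± 0.09), rose. EEF1A1, the elongation factor of translation, lies from 70 to 80 Mb and had 8742 and 8438 CPM in shCon and 4813 and 4993 CPM in control (0.80 ± 0.07). SENP6, a SUMO protease (1.03 ± 0.09), and MYO6, a myosin (0.46 ± 0.09), also rose, and MYO6 lost its call without control library 1 (0.35). The median from 70 to 80 Mb moved to 0.34 when only genes at 10 CPM or more entered.

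**Figure D5:**
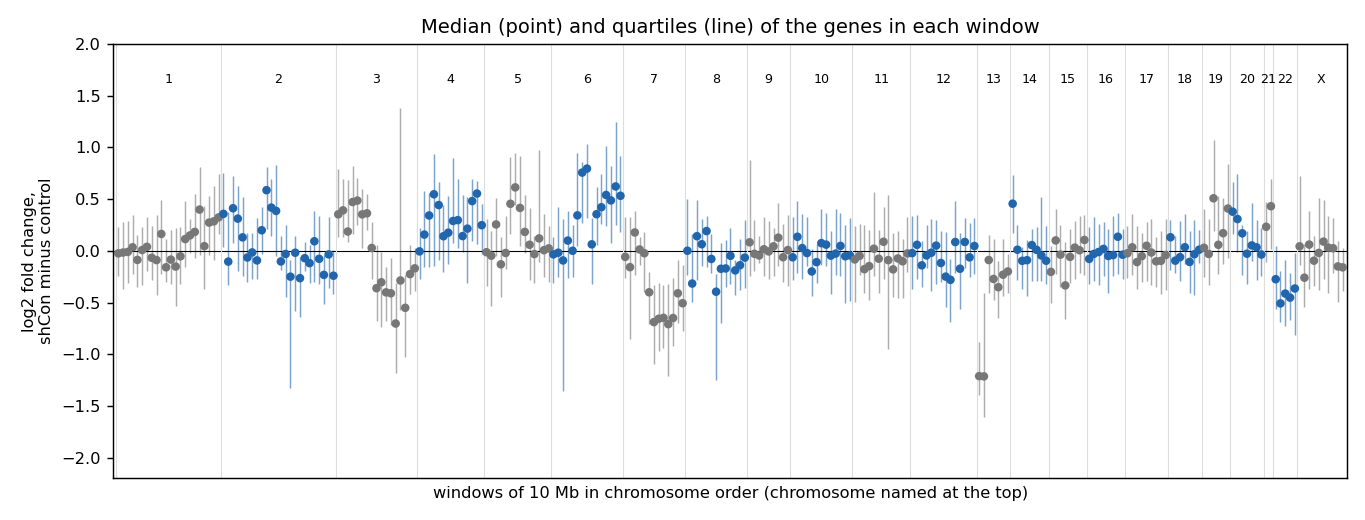
Median (point) and quartiles (line) of the log2 fold change (shCon minus control) of the protein-coding genes in each of 257 windows of 10 Mb, in chromosome order, with the chromosome named at the top and alternate chromosomes in alternate colours. The pair of windows at -1.21 near the start of chromosome 13 lies lowest, and windows of chromosome 7 stay below 0 over much of its length.

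The segments below were drawn after the window values were seen, so they are given with no test. On chromosome 13 from 20 to 40 Mb, 93.2% of 59 genes were below 0, with a median of -1.21, while the rest of the chromosome had a median of -0.19 (137 genes). On chromosome 7 from 60 to 160 Mb the median was -0.61 and 86.9% of 390 genes were below 0, beside 0.02 from 0 to 60 Mb (184 genes). Chromosome 3 went both ways, at 0.40 from 0 to 90 Mb (343 genes) and -0.32 from 110 to 200 Mb (309 genes). Chromosome 6 had a median of 0.44 from 70 to 180 Mb (257 genes) and 0.00 from 0 to 50 Mb (347 genes). Chromosome 22 had a median of -0.44 (307 genes) and chromosome 4 from 30 to 190 Mb one of 0.29 (321 genes).

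Vehicle was set beside both control sets in these segments, after centring on the median of all genes. It shares the numbered library series with shCon and was counted separately, so nearness cannot show which set departs. On chromosome 13 from 20 to 40 Mb, vehicle minus control was -1.27 and vehicle minus shCon -0.10. On chromosome 7 from 60 to 160 Mb these were -0.57 and 0.05, on chromosome 3 from 0 to 90 Mb 0.37 and -0.05, and on chromosome 22 -0.39 and 0.02. Of the 21 windows at 0.5 or more in size, 19 lay nearer shCon in vehicle. In shOC2 minus OC2 overexpression, which shares no library with this comparison but also differs in OC2, 12 of those 21 windows had the same sign. Pearson's and Spearman's correlations over the 257 windows were 0.04 and 0.08. There the chromosome 13 windows from 20 to 30 and 30 to 40 Mb had medians of -0.32 and -0.14. The chromosome 6 windows from 70 to 80 and 80 to 90 Mb had the opposite sign, at -0.65 and -0.98. Copy number was not measured here.

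The size of the difference between control sets can be set beside the differences the experiments were built to measure, from 1 fit of the 8 libraries and 18162 genes. Control and shCon differed at 10133 genes (55.8%), 3584 of them at 2-fold or more. Control and OC2 overexpression, the overexpression contrast, differed at 10977 (60.4%), 4372 at 2-fold or more. The knockdown contrast of shCon and shOC2 differed at 8502 (46.8%), 2232 at 2-fold or more. Control and shOC2 differed at 11325 (62.4%), OC2 overexpression and shCon at 10726 (59.1%), and OC2 overexpression and shOC2 at 11940 (65.7%). These pairs share libraries, so each count stands on its own. The count for the control sets was above that for the knockdown contrast and below that for the overexpression contrast, and these counts were not tested against each other. With each pair fitted on its own libraries the order was the same, but the gap to the knockdown contrast was narrower. Control and shCon then differed at 9467 of 16790 genes, shCon and shOC2 at 8969 of 16585, and control and OC2 overexpression at 10366 of 17046.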

How the data were processed

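RNA-seq of LNCaP cells was analysed from tables the authors deposited. The LNCaP table of 8 libraries holds estimated counts by Ensembl gene as deposited, of which between 10.2% and 11.6% were not whole (tolerance 0.01). They were rounded to whole counts here, and are unnormalized as deposited. The 3 vehicle libraries came from a second table of estimated counts per symbol, scaled here to CPM by library total. The submitters' processing notes name FastQC 0.9.0, Bowtie2 and the build hg38. The counting tool and its gene models were not given in the sources used here. Of 60683 identifiers, 99.5% had a current symbol and 96.4% were placed in GENCODE 29, which gives the coordinates.

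The 2 shCon and 2 control libraries were fitted alone with edgeR 4.0.16 in R 4.3.3 (TMM scaling, filterByExpr, quasi-likelihood F-test, Benjamini-Hochberg adjustment over all 16790 genes, threshold 0.05). Standard errors follow from the F statistics. Printed levels are CPM on TMM-scaled totals of the 8 libraries. For a gene at 0 in a set the fold is a bound from a floor of 3 counts per library (0.124 CPM in shCon, 0.139 CPM in control), and with 1 to 3 counts the ratio has an exact 95% Clopper-Pearson interval. Both cover counting error only. Counts were also simulated for this comparison with 200 of 16790 genes changed, equally up and down. The fit recovered 72% of genes changed 2-fold and 95% of those changed 4-fold, and called 7 unchanged genes. In the data 56.4% of genes were called, so the simulation does not measure false calls or scaling in that setting.

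The members, the 41 gene lists and the tests were chosen with earlier results of these data known. Named genes were ONECUT2, the 15 steepest rises and falls among protein-coding genes (at least 5 CPM in the higher set, sets not overlapping), the 10 largest CPM differences each way among genes called at 2-fold or more, up to 4 called and 2 uncalled members per list, and every gene of a run. KLK3 was added after its values were seen. Genes named in windows were the 3 with the highest level. Alternatives were other scalings and filters, DESeq2 1.42.0, a replicate block, a joint fit of 8 libraries and each library left out. Some genes are not reported here.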

Additional observations from a re-analysis of the deposited data

How the results depend on the processing

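Across scalings, filters, DESeq2, the replicate block, a joint fit and leaving out each library, between 7035 and 10133 genes were called, against 9467 as reported, and between 2673 and 3584 at 2-fold or more, against 3369. Of 333 named genes other than ONECUT2, 25 of the 268 called lost their call under at least 1 alternative, 13 gained one, and none changed sign. TMPRSS2 gained its call with upper-quartile scaling (0.18), in the joint fit (0.17) and in DESeq2 (0.16). PDIA6 also gained one in the joint fit (-0.17). The ONECUT2 difference was not called without a low-count filter (log2 fold change -0.42, adjusted p = 0.0711), and ran from -0.58 to -0.25 when each library was left out. Genes at the floor numbered 182 with a minimum of 1 CPM in the other set and 13 with 0 counts required, against 42. Runs of neighbouring genes numbered 76 at 2-fold, against 18 at 4-fold. The share of genes for which vehicle lay nearer shCon was 75.8% with a pseudocount of 1 CPM and 79.3% at 4-fold or more, against 76.6%. The lowest correlation between the sets was 0.819 over genes with at least 50 CPM. The last 3 alternatives, the crossed pairing and the window comparison with shOC2 minus OC2 overexpression were chosen after seeing the data.

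Same-numbered libraries did not deviate together (correlation -0.125 across 11428 genes), so the replicate numbers were not treated as a pairing. With the replicate block 9172 genes were called, and with crossed numbers 9872. With 2 libraries per set, a test without one of them assumes that the lone library varies like the others, and genes with few counts could not be told from 0 at this depth.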
